A study of Mus musculus with 45 samples.

Results

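Forelimb buds of CD1 mouse embryos at gestation day 13 were compared after 24 and 3 h of culture in medium with 10 µM bisphenol S (BPS), a sulfone that replaces bisphenol A in many plastics and papers. The 10 libraries were 5 of limbs held for 24 h with 10 µM BPS and 5 of limbs held for 3 h with 10 µM BPS, out of 45 libraries in 9 groups, and they were chosen by their labels and not by any measured value. Limbs of the other groups received 50 µM BPS or the vehicle dimethyl sulfoxide (DMSO) for the same times. The 5 libraries of each of those groups at 24 and 3 h serve here to show where 10 µM BPS differed, and the 48 h libraries were not used here. All groups shared the strain, the embryonic age, a medium with ascorbic acid and gentamycin, and a gas phase of 50% O2 and 5% CO2, and the labels state mixed sexes in culture. The forelimbs of each embryo were pooled and RNA came from whole limbs, so fewer cells of a type and less RNA per cell cannot be told apart. Every 24 h limb had also met BPS for longer than every 3 h limb, so within the 10 µM groups exposure time and culture time cannot be told apart. The sources used here do not say whether the 5 libraries of a group came from separate bottles or litters, so the p-values reflect how far libraries varied here, a spread that may be in part technical.

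The long bones of the limb begin as cartilage. Mesenchymal cells condense, turn on SOX9 and lay down type II collagen and aggrecan; chondrocytes in the middle of each rod then stop dividing, enlarge under the control of Indian hedgehog and parathyroid hormone-related protein, secrete type X collagen and let mineral form. Osteoblasts in the sheath around the rod, directed by RUNX2 and osterix, make type I collagen and bone proteins and later replace the cartilage. Muscle fibres form from migrated precursors over the same days, while the early patterning factors of the bud are turned down. A limb bud put in culture continues much of this programme, which makes it a test system for chemicals that may act on the skeleton.

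After 24 h with 10 µM BPS the limbs carried more cartilage, bone and muscle transcripts and fewer cell division, patterning, Wnt ligand and blood vessel transcripts than after 3 h. Of 16691 genes tested, 3574 (21.4%) rose and 3585 (21.5%) fell, 7159 in all (42.9%), by edgeR's quasi-likelihood test with a Benjamini-Hochberg adjusted p below 0.05. A change of at least 2-fold was seen for 1025 genes (6.14%), of which 546 rose (3.27%) and 479 fell (2.87%). The libraries of the 2 times did not overlap for 4873 genes (29.2%). Since so many genes changed, the count of a gene list below is to be read against these shares. The lists were chosen with earlier results of these data known, so their counts are descriptions and not tests. The median log2 change over all genes tested was -0.01. Scaling by the trimmed mean of M-values puts the bulk of genes near 0, so a shift shared by most genes would not show. No gene passed the test of whether its change under 10 µM BPS differed from its change under DMSO.

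Principal components were computed from the 2000 genes that varied most among the 10 libraries. The first held 51.3% of the variance of those genes, not of all genes. It put the 24 h libraries, at 22.73 to 25.84, apart from the 3 h libraries, at -28.02 to -22.59. The libraries held 15.2 to 23.1 M assigned reads, and 3 reads in a library equalled 0.13 to 0.197 CPM. Levels are given as CPM, counts divided by the library total in M reads, scaled by the trimmed mean of M-values over the 30 libraries used. In 3 of the 10 libraries a sex-linked gene went against the label of mixed sexes. Xist, the RNA of the inactive X chromosome, was at 1.13 CPM in replicate 1 of the 24 h group, where the other 4 libraries had 593 to 1096 CPM, and at 1.54 CPM in replicate 1 of the 3 h group, where the others had 400.1 to 1606 CPM. The Y-linked Ddx3y was at 0 in replicate 2 of the 3 h group, at 60.6 to 84 CPM in the other 3 h libraries and at 53 to 105 CPM at 24 h. Each of these libraries was among the single libraries left out in turn, which does not test sex, and sex was not modelled. Ddx3y was also at 0 in replicate 1 of the DMSO 3 h group, replicate 1 of the 50 µM 24 h group and replicate 2 of the 50 µM 3 h group. Limb identity matched the label: the forelimb factor Tbx5 had 294 to 323 CPM at 24 h and 277 to 327 CPM at 3 h, while the hindlimb factors averaged 26.6 CPM at 24 h and 23.9 CPM at 3 h for Tbx4, 4.39 and 5.98 CPM for Pitx1, and 1.22 and 0.987 CPM for Isl1. Of the 4 tested hindlimb genes 2 fell, Pitx1 (-0.44) and Hoxc11 (-1.74), and 0 rose.

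Promoters of 4 genes whose RNA moved in opposite directions are shown because they belong to mitotic genes, which fell, and to the bone matrix gene that rose most. Each is the 300 bases from 250 before to 50 after the RefSeq start (GRCm38.p6, equal in coordinates to mm10), printed 5′ to 3′ on the strand of the gene. Capitals mark matches, on either strand, to 3 motifs that do not overlap here. CCAAT is the box read by the factor NF-Y. The core of the cell cycle homology region (CHR) of mitotic promoters was searched as TTTGAA. The TATA box, a core promoter element, was searched as TATAAA. Cyclin B1, cyclin-dependent kinase 1 and polo-like kinase 1 drive entry into mitosis, and Ibsp encodes bone sialoprotein. Ccnb1 lies at chr13:100786437-100786736 (minus strand), Cdk1 at chr10:69352863-69353162 (minus), Plk1 at chr7:122159185-122159484 (plus) and Ibsp at chr5:104299037-104299336 (plus).
Ccnb1: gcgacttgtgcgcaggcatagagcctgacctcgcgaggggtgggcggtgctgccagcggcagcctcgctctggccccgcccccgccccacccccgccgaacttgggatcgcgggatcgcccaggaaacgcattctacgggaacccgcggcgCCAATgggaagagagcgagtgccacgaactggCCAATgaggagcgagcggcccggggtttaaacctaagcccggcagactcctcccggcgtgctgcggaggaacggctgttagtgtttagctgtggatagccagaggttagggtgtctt
Cdk1: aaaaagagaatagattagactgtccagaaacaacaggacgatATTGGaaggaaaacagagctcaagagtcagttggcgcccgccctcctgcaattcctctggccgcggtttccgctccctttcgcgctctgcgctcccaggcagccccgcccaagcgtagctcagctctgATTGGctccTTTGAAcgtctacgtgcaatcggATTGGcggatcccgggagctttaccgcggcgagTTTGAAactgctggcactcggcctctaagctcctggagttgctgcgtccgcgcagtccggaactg
Plk1: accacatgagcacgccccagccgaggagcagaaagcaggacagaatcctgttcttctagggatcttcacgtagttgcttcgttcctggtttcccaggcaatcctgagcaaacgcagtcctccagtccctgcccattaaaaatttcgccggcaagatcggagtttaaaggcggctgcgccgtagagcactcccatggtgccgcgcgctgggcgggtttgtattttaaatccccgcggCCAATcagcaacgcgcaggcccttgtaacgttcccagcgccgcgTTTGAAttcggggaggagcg
Ibsp: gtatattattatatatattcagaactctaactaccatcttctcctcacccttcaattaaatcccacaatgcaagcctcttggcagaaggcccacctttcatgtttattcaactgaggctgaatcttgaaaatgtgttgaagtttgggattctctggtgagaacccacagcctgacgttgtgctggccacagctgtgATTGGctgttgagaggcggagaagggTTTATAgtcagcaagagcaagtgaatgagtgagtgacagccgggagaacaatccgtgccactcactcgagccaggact
The Cdk1 window held the CHR core at -71 and -15 from the start with 3 CCAAT boxes on the opposite strand, the Plk1 window held the CHR core at 31 and a CCAAT box at -14, and the Ccnb1 window held CCAAT boxes at -99 and -67 and no CHR core. The Ibsp window held a TATA box at -28 and a CCAAT box at -54, both on the opposite strand to the gene. RefSeq windows were found for 34 of the 40 cell cycle genes, and 17 of these (50%) held the CHR core, against 1371 of 11784 (11.6%) over all tested genes with a window. The CCAAT box stood in 27 of the 34 windows (79.4%) and in 38.3% of all. Of the genes that fell at least 2-fold 26.2% held the CHR core, and of those that rose at least 2-fold 11.9% did. The TATA box stood in 1 of 11 osteoblast gene windows (9.09%) and in 7.37% of all, and in 17.5% of genes that rose at least 2-fold. A match is a description of letters and not evidence of binding.

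Cartilage matrix genes rose almost without exception. Of 27 tested genes of the cartilage and early chondrocyte list 26 rose and 0 fell, 19 of them at least 2-fold, with a median log2 change of 1.29, against 21.4% of all genes rising. Col2a1 (chr15:97975602-98004695, minus strand), the main collagen of cartilage, had 6466, 6058, 6845, 6197 and 5530 CPM at 24 h, against 2467, 2557, 2279, 2625 and 2386 CPM at 3 h. Every 24 h library lay above every 3 h library by a wide gap, and the log2 change was 1.33 (SE 0.061, adjusted p 1.16e-12). Acan (chr7:79053483-79115099, plus), the proteoglycan that binds water in cartilage, had 441, 416, 476, 409 and 318 CPM at 24 h, against 149.5, 157, 144, 159 and 135 CPM at 3 h, a log2 change of 1.47 (SE 0.087). Its groups also stood apart. Matrilin 1, an adaptor protein of the matrix (Matn1, chr4:130944385-130955475, plus) had 531, 447, 495, 404 and 344 CPM at 24 h, against 106, 111, 70.9, 96.7 and 97.9 CPM at 3 h, a log2 change of 2.20 (SE 0.15). Cytl1, a secreted protein of chondrocytes, had 143, 141, 131, 128 and 122 CPM at 24 h, against 28.9, 27.9, 26.7, 30 and 25.5 CPM at 3 h, and its log2 change of 2.26 (SE 0.061, adjusted p 6.35e-16) was the largest of the list.

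Per kilobase of gene length, Col2a1 was the most abundant among Col2a1, Col1a1, Col9a2, Acan and Col10a1 at 24 h. Its mean was 673 reads per kilobase scaled to library size (RPKM) at 24 h and 266 at 3 h. Col1a1 of bone and sheath came next, with 419.9 RPKM at 24 h, and then Col9a2, with 314 RPKM at 24 h and 138 at 3 h. Acan, a long transcript, had 55.2 RPKM at 24 h and 19.9 at 3 h. The 44 collagen genes together took 2.04 to 2.66% of the reads at 24 h and 1.31 to 1.44% at 3 h. The master factor of the lineage did not pass. Sox9 (chr11:112782224-112787760, plus) had 496, 510.2, 485, 496 and 479 CPM at 24 h, against 459, 453, 439, 454 and 498 CPM at 3 h. The groups overlapped through 1 library at 3 h, and the log2 change of 0.10 (SE 0.048) did not pass (adjusted p 0.121). Its partners passed: Sox6 had 115, 135, 142, 121 and 143 CPM at 24 h and 71.6, 76.4, 87.2, 77.2 and 75.1 CPM at 3 h, a log2 change of 0.75, and Sox5 rose by 0.47.

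**Figure D1:**
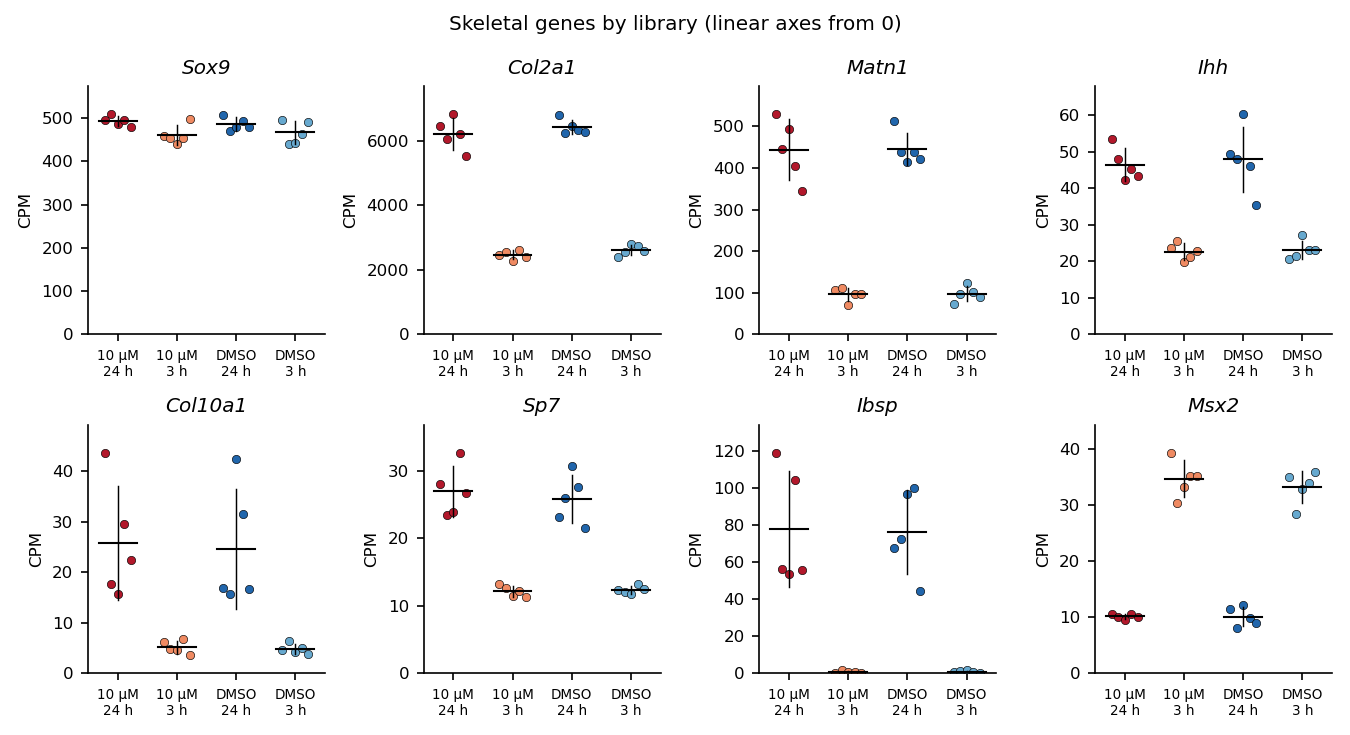
Levels of 8 skeletal genes in CPM (linear axes from 0) in each library of the 10 µM 24 h, 10 µM 3 h, DMSO 24 h and DMSO 3 h groups, with the mean (bar) and SD (line), n = 5 a group. Col2a1, Matn1, Ihh, Col10a1, Sp7 and Ibsp stand higher at 24 h than at 3 h under both treatments, Msx2 stands lower, and Sox9 lies between 439 and 510.2 CPM in all 10 libraries with 10 µM BPS.

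The markers of enlarging chondrocytes rose from low levels. Of 19 tested genes of the hypertrophic and mineralising list 14 rose and 0 fell (median 1.02). Type X collagen (Col10a1, chr10:34389981-34397085, plus), the marker of the stage, had 43.7, 17.6, 15.8, 29.5 and 22.5 CPM at 24 h, against 6.17, 4.77, 4.54, 6.84 and 3.53 CPM at 3 h. The 24 h libraries spread widely among themselves yet all lay above the 3 h libraries (log2 change 2.32, SE 0.34, adjusted p 0.000529). Per kilobase it remained far below Col2a1, at 8.25 RPKM at 24 h and 1.65 at 3 h. Ihh (chr1:74945315-74951672, minus), the signal of prehypertrophic cells, had 53.5, 48, 42.3, 45.4 and 43.5 CPM at 24 h, against 23.7, 25.7, 19.7, 21.2 and 22.7 CPM at 3 h, a log2 change of 1.04 (SE 0.08). Pthlh, which encodes parathyroid hormone-related protein of the same growth plate loop, rose by 0.42 (adjusted p 0.00966). Its receptor gene Pth1r had a log2 change of 0.14 that did not pass (adjusted p 0.0648), and passed without replicate 3 (0.0279) or replicate 5 (0.0293) of the 24 h group and with no filter on low counts (0.0326). Mmp13, Phospho1 and Foxa2, genes of the late mineralising phase or its regulators, had too few reads to be tested.

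Among the genes that rose were some of mineral-binding proteins and of phosphate supply. Bone sialoprotein (Ibsp, chr5:104299171-104311469, plus) had 119, 56.5, 53.8, 104 and 55.9 CPM at 24 h, against 0.22, 1.62, 0.626, 0.871 and 0 CPM at 3 h. It was close to absent in every 3 h library and well expressed in every 24 h library, with a log2 change of 6.78 (SE 0.54, adjusted p 1.36e-05), the largest rise of any gene that met the rule for naming (a mean of at least 1 CPM). Under DMSO its log2 change was 6.48 and under 50 µM BPS 7.08. Osteopontin (Spp1, chr5:104435118-104441050, plus) had 12.5, 6.33, 8.67, 12.1 and 11.8 CPM at 24 h, against 2.59, 2.25, 2.82, 1.93 and 2.5 CPM at 3 h, a log2 change of 2.08 (SE 0.18). Alpl, the phosphatase that frees phosphate for mineral, had 33.9, 24.3, 27.9, 33.8 and 22.1 CPM at 24 h, against 8.15, 9.26, 9.39, 10.3 and 7.82 CPM at 3 h (log2 change 1.65, SE 0.12). Neither gene's groups overlapped. Slc13a5, a citrate transporter that supplies forming bone, had 11.2, 6.69, 6.9, 9.14 and 8.81 CPM at 24 h, against 0.606, 0.63, 0.991, 0.747 and 0.326 CPM at 3 h, and was among the 8 largest rises (3.68).

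Osteoblast genes moved in both directions. Of 20 tested, 14 rose and 4 fell (median 0.51), and Bglap and Bglap2, which encode osteocalcin of mature osteoblasts, had too few reads to be tested. Both lineage factors rose. Runx2 (chr17:44495987-44814797, minus) had 59.9, 65.5, 69.2, 64.2 and 65.8 CPM at 24 h, against 32.9, 36.7, 36.5, 38.7 and 30 CPM at 3 h (log2 change 0.89, SE 0.068). Osterix (Sp7, chr15:102356606-102367182, minus) had 28, 23.4, 23.9, 32.7 and 26.7 CPM at 24 h, against 13.2, 12.7, 11.4, 12.2 and 11.3 CPM at 3 h (1.14, SE 0.096). The matrix genes followed: Col1a1 rose by 0.79, with 2301 to 3013 CPM at 24 h and 1469 to 1736 CPM at 3 h, Omd (osteomodulin) by 2.57, and Smpd3, a sphingomyelinase needed for mineral, by 2.53. The homeobox genes Msx2 and Dlx3 went the other way. Msx2 (chr13:53466884-53473074, minus) had 10.6, 10.1, 9.55, 10.5 and 10 CPM at 24 h, against 39.3, 30.3, 33.1, 35.2 and 35.1 CPM at 3 h, a log2 change of -1.77 (SE 0.083), and Dlx3 fell by 0.89. The other genes that fell were Atf4 (-0.24) and Bambi (-0.23), a decoy receptor.

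The tendon genes Scx and Tnmd rose and the joint factor Gdf5 fell. In the tendon and joint list 11 of 21 genes rose and 2 fell (median 0.16); 1 fell without replicate 5 of the 24 h group or without replicate 1, 2 or 3 of the 3 h group. Scleraxis (Scx), the tendon progenitor factor, had 93.5, 90.3, 104, 119.8 and 99 CPM at 24 h, against 53.2, 56.8, 48.5, 51.5 and 52 CPM at 3 h (log2 change 0.95), and tenomodulin (Tnmd) rose by 1.43. Gdf5 (chr2:155941023-155945367, minus), the growth factor of the joint interzone, had 81.9, 84.7, 80.5, 80.2 and 68.5 CPM at 24 h, against 109, 96.7, 103, 102 and 97.2 CPM at 3 h, a log2 change of -0.36 (SE 0.059). All 24 h libraries lay below all 3 h libraries for Gdf5 and above them for Scx. Lubricin (Prg4), a later product of the joint surface, rose by 1.02. Of 8 osteoclast genes tested 4 rose and 1 fell, the integrin Itgb3 (-0.89); without replicate 2 or 5 of the 24 h group or replicate 4 of the 3 h group 2 fell. Mmp9, the gelatinase of osteoclasts, had 21.9 to 31.9 CPM at 24 h and 7.66 to 13 CPM at 3 h (1.39), while Acp5, the osteoclast phosphatase, had a log2 change of -0.31 that did not pass. Of 24 matrix proteases and inhibitors 10 rose and 4 fell (median 0.03), and 2 fell without replicate 4 of the 24 h group. Among those that rose were the procollagen proteases Adamts2 (0.88) and Adamts3 (1.15). The shares that rose and fell were 52.4% and 9.52% for tendon and joint, 50% and 12.5% for osteoclasts, and 41.7% and 16.7% for proteases. Over all genes they were 21.4% and 21.5%.

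Most tested hedgehog signalling genes rose, as did the ligand gene Ihh. Of 19 tested 13 rose and 2 fell (median 0.34), and the other ligand genes Shh and Dhh had too few reads to be tested. The direct targets led: the receptor Ptch1 had 239 to 275 CPM at 24 h, against 133, 134, 155, 132 and 130.4 CPM at 3 h (log2 change 0.89, SE 0.057), and the decoy Hhip had 60.6, 65.3, 65.3, 67 and 76.5 CPM at 24 h, against 30.6, 29.6, 36.8, 34 and 27.4 CPM at 3 h (1.08). No 24 h library overlapped a 3 h library for either. Gli1, the effector that the pathway induces, rose by 0.82. The inhibitor Sufu (-0.23) and Foxf1 (-1.51), a factor of lateral mesoderm with 0.331 to 0.485 CPM at 24 h and 0.809 to 2.05 CPM at 3 h, fell. In the BMP and TGF-beta list 14 of 33 genes rose and 11 fell (median 0.12), with no gene changed 2-fold: the ligand Tgfb3 rose by 0.69, whereas the BMP target Id3 had 148, 137, 136, 154 and 118 CPM at 24 h, against 209 to 263 CPM at 3 h (-0.77). Id1 (-0.50) and Id2 (-0.72) fell too.

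Wnt genes moved in both directions and are given by role. Of 40 tested 11 rose and 20 fell (median -0.24, against 21.4% of all genes rising and 21.5% falling). Of 12 ligands 10 fell, 1 rose (Wnt5b, 0.19) and 1 did not pass (Wnt16). Wnt6 (chr1:74771892-74785322, plus), made in limb ectoderm, had 11.6, 10.2, 12.2, 9.67 and 9.29 CPM at 24 h, against 37.5, 54.6, 43.9, 34.7 and 45.1 CPM at 3 h, a log2 change of -2.03 (SE 0.11). The nuclear factors and feedback targets fell in 5 of 6 cases. Lef1, a nuclear factor of the pathway, had 25.3, 19.5, 21.1, 20.3 and 22.4 CPM at 24 h, against 54.2, 50, 49.9, 54.9 and 50.5 CPM at 3 h (-1.26). Axin2, the general target, had 50.2 to 63.9 CPM at 24 h and 90.6 to 107 CPM at 3 h (-0.80). The groups stood apart for all of these. Receptors and co-receptors rose in 5 of 8 cases and fell in 1, led by the frizzled gene Fzd9 with 78 to 82.9 CPM at 24 h and 30.4 to 39 CPM at 3 h (1.20). Of the 4 R-spondins, which boost the signal, 1 rose and 2 fell. Of 10 secreted inhibitors 4 rose, among them Frzb of cartilage (0.62), 2 fell and 4 did not pass. Epidermal markers moved beside these ligands: 13 of 26 fell and 5 rose, and their summed level was 383 to 589 CPM at 24 h and 559 to 890.2 CPM at 3 h. The part of ectoderm content in the ligand counts was not tested.

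**Figure D2:**
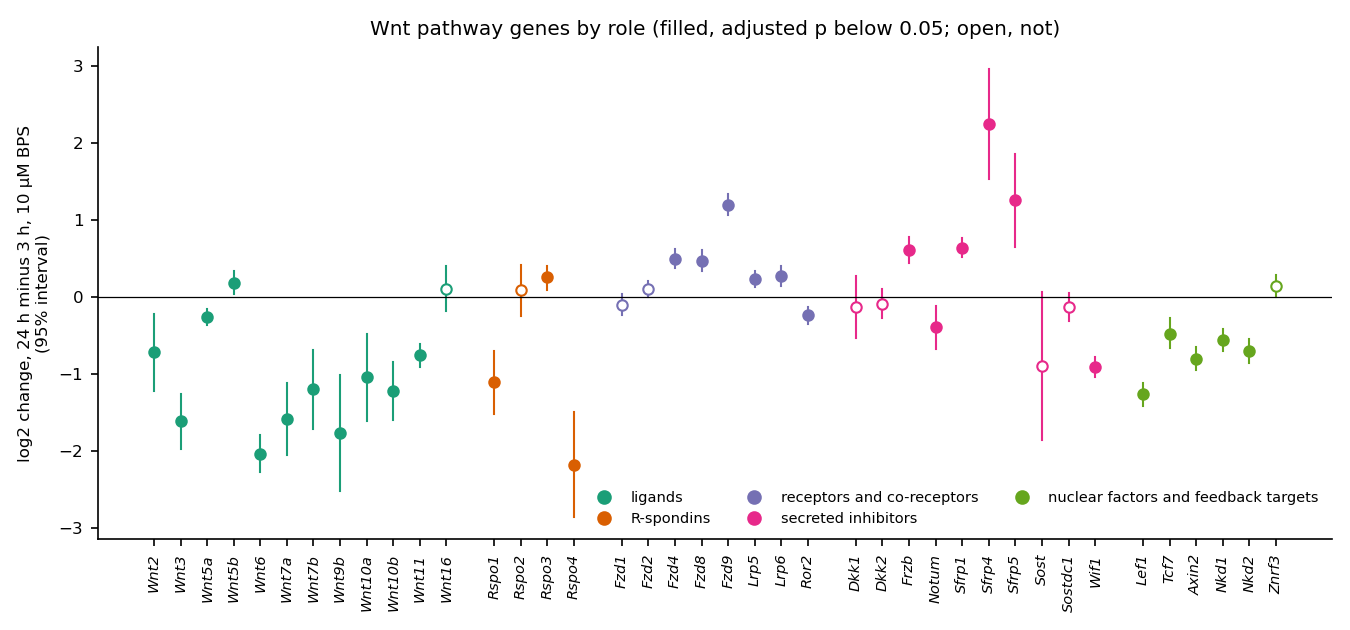
Log2 change at 24 h over 3 h with 10 µM BPS (points, with the 95% interval as lines) for the 40 tested Wnt pathway genes, coloured by role, filled where the adjusted p was below 0.05 and open where it was not. Of the 12 ligands 10 lie below 0 beyond the test's threshold, down to -2.03 for Wnt6, while 5 of 8 receptors and co-receptors lie above 0 beyond it.

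FGF pathway genes rose more often than they fell, 13 against 4 of 24 (median 0.38). Fgfr3, the receptor that restrains chondrocyte division, had 228, 229, 254, 232 and 223 CPM at 24 h, against 133, 125, 127, 133 and 111 CPM at 3 h (log2 change 0.89). Of 17 genes of the insulin-like growth factor system 10 rose and 3 fell (median 0.28). Igf2, the fetal growth factor, had 1175 to 1298 CPM at 24 h and 812 to 897 CPM at 3 h (0.55), and the noncoding H19 of the same imprinted domain had 10742 to 13875 CPM at 24 h and 6994 to 7721 CPM at 3 h (0.77). Neither overlapped between times. Retinoid genes mostly fell, 9 of 17, with 3 that rose (median -0.22): Aldh1a2, which makes retinoic acid, had 23.3, 30.2, 21.1, 27.4 and 32 CPM at 24 h, against 69.5, 54.4, 50.6, 62.8 and 76 CPM at 3 h (-1.23), and the degrading enzymes Cyp26a1 (-1.60) and Cyp26b1 (-0.68) fell as well. Of 20 Notch genes 3 rose (15%) and 5 fell (25%), with a median of -0.06, beside 21.4% and 21.5% of all genes. The number that fell was 3 without replicate 5 of the 24 h group or replicate 2 of the 3 h group.

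The early patterning factors of the bud fell together. Of 36 non-Hox patterning genes 31 fell and 1 rose (Tbx15, 0.28), with a median of -0.67, against 21.5% of all genes falling. Msx1, a factor of undifferentiated distal mesenchyme, had 82.5, 64.4, 70.7, 78.1 and 71.1 CPM at 24 h, against 184, 149.9, 161, 177 and 156 CPM at 3 h (-1.18). Shox2 of proximal limb fell by 0.67, Alx4 by 1.44 and Lin28b, a regulator of developmental timing, by 0.81. Tbx5 had a log2 change of 0.01 that did not pass (adjusted p 0.929). The general limb mesenchyme factor Prrx1 had a log2 change of -0.14 (adjusted p 0.0352), which did not pass without replicate 1, 2 or 3 of the 24 h group or replicate 1, 3 or 4 of the 3 h group (0.0567 to 0.0828), or with no filter (0.0795). Of 30 Hox genes tested 9 fell and 1 rose, Hoxd10 (0.30), and 2 rose without replicate 1 or 2 of the 3 h group. The genes that fell were Hoxd13 and members of the HoxB and HoxC clusters, such as Hoxb9 with 0.27, 1.12, 0.84, 0.199 and 0.534 CPM at 24 h, against 3.25, 3.33, 2.4, 2.49 and 3.1 CPM at 3 h (-2.26). Hoxd13, the factor of the digits, had 299.7 to 349 CPM at 24 h and 352 to 421 CPM at 3 h (-0.25).

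Cell division genes fell almost without exception. Of 40 tested 39 fell, 20 of them at least 2-fold, and 1 rose (Ccne1, 0.24, adjusted p 0.0118), with a median of -1.02. Summed over the list, the level was 2208 to 2559 CPM at 24 h and 4314 to 4660 CPM at 3 h. Ccnb1 (chr13:100778650-100786570, minus), whose promoter is printed above, had 52.7, 45.3, 51.9, 48.9 and 50.9 CPM at 24 h, against 121, 116, 115, 128 and 120.0 CPM at 3 h (log2 change -1.27, SE 0.054, adjusted p 7.16e-13). Mki67 (chr7:135689784-135716361, minus), the marker of cycling cells, had 169, 150.4, 167, 175 and 155 CPM at 24 h, against 354, 298, 361, 365 and 353 CPM at 3 h (-1.09). The 24 h libraries all lay below the 3 h libraries. The other printed promoters belong to Cdk1, which fell by 0.76, and Plk1, which fell by 1.23, both on the log2 scale. Aurka, a spindle kinase, fell by 1.41 and Tpx2, its activator, fell by 1.25. The replication clamp Pcna fell by 0.46 and the helicase subunit Mcm2 fell by 0.41. The cyclin-dependent kinase inhibitor Cdkn1a had 116, 95.3, 109, 98.5 and 84.4 CPM at 24 h, against 56.9, 67.8, 54.5, 59.2 and 64.3 CPM at 3 h (0.73). Across 22 p53 targets and apoptosis genes 7 rose (31.8%) and 6 fell (27.3%), with a median of 0.06. Over all genes 21.4% rose and 21.5% fell. Histone genes of the first cluster were among the largest falls, Hist1h2bj by 3.53, Hist1h2bk by 3.06 and Hist1h3e by 2.79. Their near-identical copies can share reads, and most histone RNA lacks the poly-A tail used to make these libraries, so the values of single histone genes are uncertain.

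**Figure D3:**
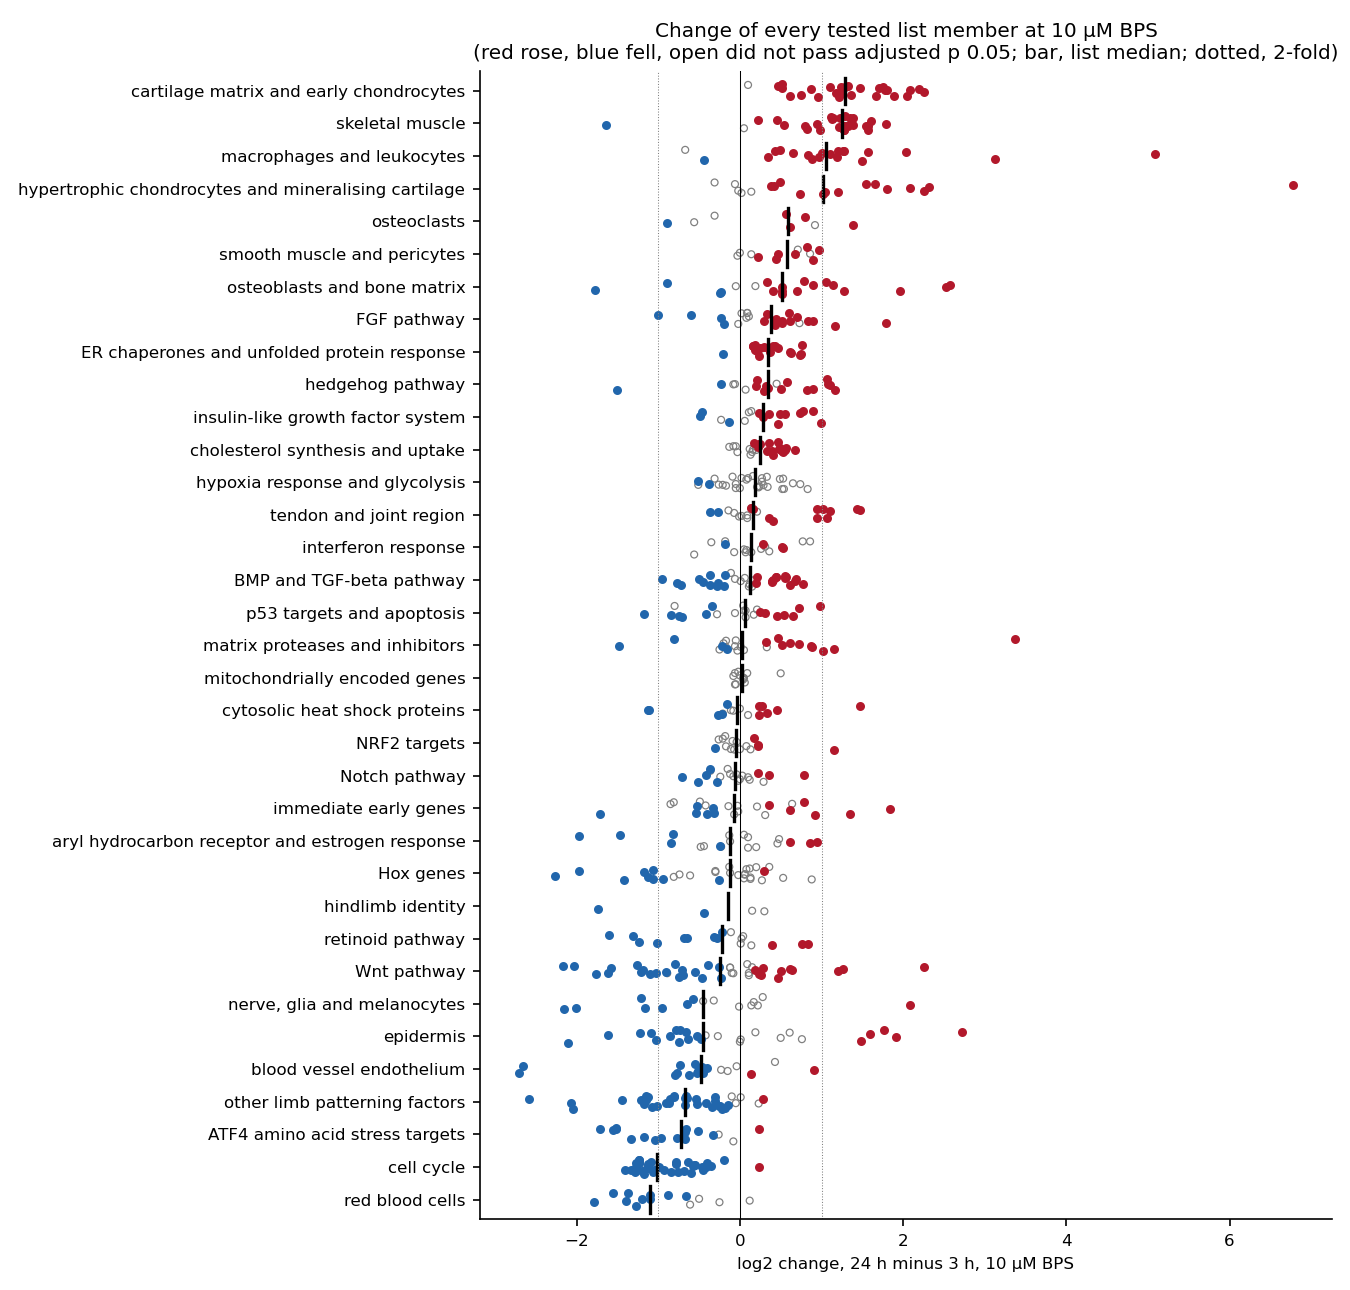
Log2 change at 24 h over 3 h with 10 µM BPS of every tested gene of the 35 lists, 1 row a list in order of its median (black bar); red points rose, blue points fell and open points did not pass, and dotted lines mark 2-fold. Cartilage (26 of 27 rose), skeletal muscle (26 of 28 rose) and cell cycle (39 of 40 fell) lie near the ends, and over all genes 21.4% rose and 21.5% fell.

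Other cell types of the limb changed in their own ways. Of 28 skeletal muscle genes 26 rose and 1 fell (median 1.25), and the summed level of the list was 4744 to 5682 CPM at 24 h and 1838 to 2386 CPM at 3 h. The embryonic myosin Myh3 (chr11:67078300-67102291, plus) had 643, 716, 776, 612 and 562 CPM at 24 h, against 289, 272, 227, 251 and 319 CPM at 3 h (1.28), and skeletal actin Acta1 had 516, 458, 474, 443 and 464 CPM at 24 h, against 148, 135, 109, 137 and 152 CPM at 3 h (1.79). The gene that fell was Pax3 of migrating precursors, with 0.917, 0.355, 0.309, 0.464 and 0.747 CPM at 24 h, against 1.93, 1.66, 1.93, 1.74 and 1.47 CPM at 3 h (-1.64). No Pax3 value at 24 h reached one at 3 h, and Pax7 of satellite cells had a log2 change of 0.05 that did not pass. Of 20 macrophage and leukocyte genes 18 rose and 1 fell, the mannose receptor Mrc1 (-0.44), with a median of 1.05 and a summed level of 252 to 317 CPM at 24 h and 109 to 126 CPM at 3 h; 2 fell without replicate 1 or 2 of the 24 h group or replicate 5 of the 3 h group. Lysozyme (Lyz2) had 32.3, 33.2, 29.5, 30.1 and 27.9 CPM at 24 h, against 4.24, 2.38, 3.65, 3.8 and 3.53 CPM at 3 h (3.12). Gpnmb, a glycoprotein of phagocytes that osteoblasts also make, had 44.2, 31.8, 42.2, 46.7 and 39.7 CPM at 24 h, against 1.38, 1.12, 0.417, 1.31 and 1.79 CPM at 3 h, and its log2 change of 5.09 (SE 0.20) was the next after that of Ibsp. The complement gene C1qa rose by 0.97, with 13.1 to 20.2 CPM at 24 h and 7.82 to 10.4 CPM at 3 h.

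Blood and vessel genes fell. Of 14 red cell genes 0 rose and 10 fell (median -1.10, summed level 1492 to 1801 CPM at 24 h and 1844 to 3094 CPM at 3 h), among them the membrane anion exchanger Slc4a1 with 3.45 to 8.4 CPM at 24 h and 15.9 to 26.4 CPM at 3 h (-1.79). The globins Hba-a1, Hba-a2 and Hbb-bs did not pass, and their near-identical copies can share reads. Of 20 endothelial genes 14 fell and 2 rose (median -0.48), with a summed level of 457 to 598 CPM at 24 h and 734 to 776 CPM at 3 h. The fall was steepest for Plvap, of vessel fenestrations, with 9.06, 10.4, 6.54, 6.23 and 4.81 CPM at 24 h, against 42.8, 48.7, 44.5, 50.8 and 46.3 CPM at 3 h (-2.66), and for the receptor Aplnr, with 12.9, 8.46, 8.44, 8.81 and 7.64 CPM at 24 h, against 58.2, 60.5, 60.8, 60.5 and 61.4 CPM at 3 h (-2.71). The pan-endothelial genes Pecam1 (-0.55) and Cdh5 (-0.52) fell too. The genes that rose were Erg (0.14), which cartilage also expresses, and the tip cell gene Esm1 (0.91, adjusted p 0.0193). The count that rose was 1 when any 1 of 9 libraries was left out (each except replicate 1 of the 24 h group). Esm1 itself had 0.57 without replicate 2 of the 24 h group. It did not pass without replicate 3 (0.0547) or replicate 5 (0.0544) of the 3 h group, and in the rest of those 9 cases Erg did not pass. Under DMSO 0 of 20 endothelial genes rose. Smooth muscle and pericyte genes rose in 7 of 12 cases and fell in 0 (median 0.58).

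Epidermal genes, most of the named ones keratins, moved in both directions. Of 26 tested 13 fell and 5 rose (median -0.45). Krt15 of basal cells had 19.5, 18.5, 17.9, 11.2 and 13.7 CPM at 24 h, against 63, 83.7, 76.8, 53.8 and 71.2 CPM at 3 h (-2.11). Krt1 of the spinous layer had 27.5, 16.3, 11.4, 7.09 and 38.8 CPM at 24 h, against 5.95, 5.98, 6.88, 5.16 and 5.87 CPM at 3 h (1.76, adjusted p 0.0142); the 24 h libraries spread far more than the 3 h libraries but did not overlap them. The stress keratins Krt6a (2.72), Krt16 (1.91) and Krt17 (1.49) and Krt10 (1.59) were the others that rose, and Krt6a shares near-identical sequence with Krt6b. Krt14 had 109, 82.2, 103, 87 and 72.7 CPM at 24 h, against 103, 169, 138, 101 and 140.5 CPM at 3 h; the groups overlapped, and its log2 change of -0.53 (adjusted p 0.0381) did not pass without replicate 2, 4 or 5 of the 24 h group or replicate 2, 3 or 5 of the 3 h group (0.0606 to 0.0821), or with no filter (0.082). In nerve and glia 7 of 15 genes fell and 1 rose (median -0.45): the neural crest factor Sox10 had 8.22 to 11.6 CPM at 24 h and 21.2 to 26.3 CPM at 3 h (-1.21), while S100b, which chondrocytes also make, rose by 2.09.

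Stress and metabolic lists moved in part. Targets of ATF4, the factor of amino acid shortage, fell in 15 of 18 cases (median -0.72). The amino acid transporter Slc7a5 had 82.2, 79.1, 80.3, 77.2 and 70.6 CPM at 24 h, against 218, 239, 206, 199 and 256 CPM at 3 h (-1.52), and asparagine synthetase (Asns) fell by 1.04 on that scale. The one target that rose, Atf5 (0.24, adjusted p 0.0192), did not pass without replicate 2 or 3 of the 24 h group or replicate 4 or 5 of the 3 h group (0.0506 to 0.0726). Endoplasmic reticulum chaperones rose in 18 of 19 cases by small amounts (median 0.34): Hspa5, the main chaperone of the secretory path, had 716, 729.6, 750.0, 711 and 701 CPM at 24 h, against 521, 511, 567, 575 and 548 CPM at 3 h (0.40), and Herpud1 fell by 0.21. Of 25 cholesterol synthesis and uptake genes 16 rose and 0 fell (median 0.25), among them the sterol synthesis enzymes Lss (0.57) and Msmo1 (0.55). Cytosolic heat shock genes rose in 6 and fell in 5 of 16 cases (median -0.04), and 0 of 12 mitochondrially encoded genes passed by edgeR, by DESeq2 or by limma-voom, with 1 that passed without replicate 3 of the 24 h group and 1 with no filter. The growth-factor and stretch-responsive matricellular gene Ctgf had 103, 96.2, 73, 90.6 and 75.8 CPM at 24 h, against 26.6, 27.3, 19.2, 26.1 and 22.9 CPM at 3 h (1.84). It belongs to the immediate early list, in which 6 of 23 genes rose and 6 fell (26.1% each, against 21.4% and 21.5% of all genes). By limma-voom 10 of the list fell. Fos had 8.95, 11.3, 12, 21.7 and 4.38 CPM at 24 h, against 21.5, 20.3, 17.4, 21.9 and 22.8 CPM at 3 h, with overlap through replicate 4 at 24 h, and its log2 change of -0.85 (adjusted p 0.0783) passed without replicate 4 of the 24 h group (0.00279) and by limma-voom (-1.04, 0.00276).

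Genes that respond to foreign chemicals or estrogens moved in both directions, at shares near those of all genes (21.4% rose and 21.5% fell). Of 19 tested genes of the aryl hydrocarbon receptor and estrogen list 3 rose (15.8%) and 5 fell (26.3%), with a median of -0.12. The number that fell was 3 by DESeq2 and with no filter, 2 without replicate 1 of the 24 h group or replicate 4 of the 3 h group, and 3 without replicate 3, 4 or 5 of the 24 h group or replicate 2 or 5 of the 3 h group. Cyp1a1 (chr9:57687928-57703824, plus), the classical target of the aryl hydrocarbon receptor, had 2.32, 3.2, 2.92, 1.99 and 4.27 CPM at 24 h, against 2.64, 9.71, 4.95, 10.1 and 30.6 CPM at 3 h. The groups overlapped, and replicate 5 at 3 h stood far above the rest; replicate 5 of the DMSO 3 h group was likewise high, at 26.7 CPM. The log2 change of -1.97 (adjusted p 0.0419) was -1.22 without that library (0.0337) and did not pass without any 1 of the 24 h libraries or replicate 2 or 4 of the 3 h group (0.0606 to 0.0884), or with no filter (0.074). The estrogen receptor genes Esr1 and Esr2 had at most 1.88 and 1.06 CPM in any of the 10 libraries. In the NRF2 list 4 of 16 genes rose and 1 fell: 2 rose without replicate 1 or 2 of the 24 h group or replicate 1, 2 or 3 of the 3 h group, and 2 fell without replicate 1 of the 24 h group or replicate 1 or 5 of the 3 h group. Of 17 interferon response genes 3 rose and 1 fell, and 0 fell without replicate 2 or 4 of the 24 h group or replicate 5 of the 3 h group.

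Genes of the hypoxia response and glycolysis differed among the 24 h libraries more than between times. Of 30 tested 0 rose and 2 fell by edgeR (median 0.18), Gapdh (-0.51) and Pkm (-0.38), both glycolytic enzymes; 1 rose by DESeq2 and 2 by limma-voom. Without replicate 2 of the 24 h group 4 fell and 1 rose, without replicate 3 of that group or replicate 5 of the 3 h group 1 fell, and 1 rose without replicate 3, 4 or 5 of the 24 h group; Pkm did not pass without replicate 3 of the 24 h group (0.0592) or replicate 5 of the 3 h group (0.0548), or with no filter (0.0882). The glucose transporter Slc2a1 had 123, 185, 57.4, 52.3 and 47.7 CPM at 24 h, against 92.4, 109, 85.7, 84.1 and 109 CPM at 3 h, a log2 change of -0.05 (adjusted p 0.938). The vessel growth factor Vegfa had 166, 269.9, 109, 99.8 and 97.8 CPM at 24 h, against 103, 111, 101, 103 and 109 CPM at 3 h. Replicates 1 and 2 of the 24 h group were high for both and the other 3 were not. In a count chosen after these values were seen, all 30 genes had their 2 highest 24 h values in replicates 1 and 2, which was so for 5 of 30 genes at 3 h with 10 µM BPS, for 2 of 30 at 24 h with 50 µM BPS and for 29 of 30 at 24 h with DMSO. The summed level of the list was 5568, 6820.4, 3816, 3622 and 3429.6 CPM at 24 h with 10 µM BPS, and 7026, 5634, 3602, 3769 and 4413 CPM at 24 h with DMSO. What replicates 1 and 2 at 24 h shared across treatments is not given in the sources used here.

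**Figure D4:**
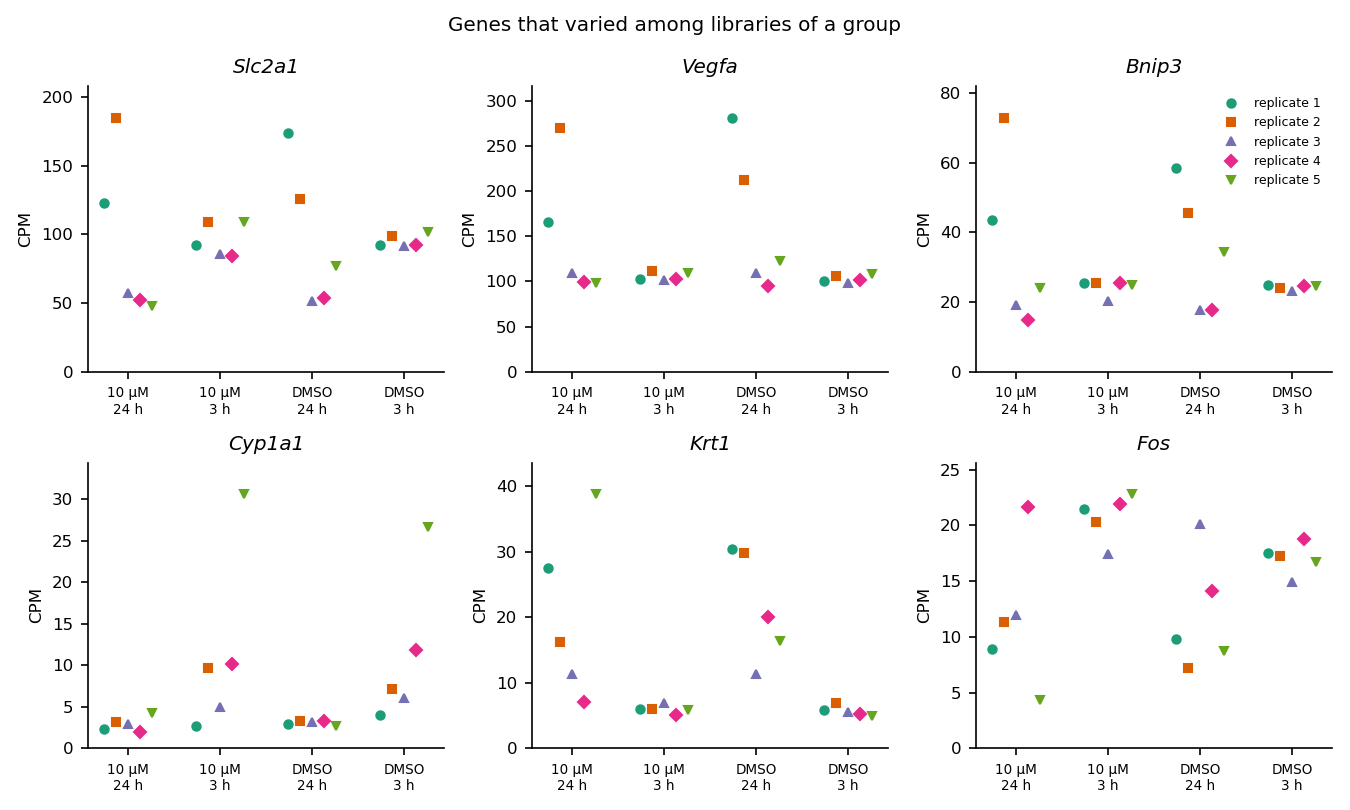
Levels in CPM (linear axes from 0) of 6 genes that varied among libraries of a group, by replicate number, in the 10 µM 24 h, 10 µM 3 h, DMSO 24 h and DMSO 3 h groups. Slc2a1, Vegfa and Bnip3 are highest in replicates 1 and 2 at 24 h under both treatments, and Cyp1a1 is highest in replicate 5 at 3 h under both, at 30.6 CPM with 10 µM BPS and 26.7 CPM with DMSO.

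The comparison with DMSO asks whether 10 µM BPS altered this course. The 24 h over 3 h comparison of DMSO limbs, which shares no library with that of 10 µM limbs, called 6642 of 16536 genes (40.2%). Of these 5448 were called in both, 76.1% of the calls under 10 µM BPS and 82% of those under DMSO, all in the same direction. Of 972 genes changed at least 2-fold under 10 µM BPS and tested under DMSO, 858 (88.3%) were called there in the same direction. In the skeletal, muscle and cell cycle lists the medians lay close together: 1.29 under 10 µM BPS and 1.29 under DMSO for cartilage, 1.02 and 1.05 for hypertrophic cartilage, 0.51 and 0.51 for osteoblasts, 1.25 and 1.25 for muscle, and -1.02 and -0.98 for the cell cycle. They lay furthest apart for the 4 hindlimb genes, at -0.15 under 10 µM BPS and -0.68 under DMSO, and for nerve and glia, at -0.45 and -0.18. The median difference per gene was 0.00 for the hindlimb list and -0.13 for nerve and glia, with 1 gene in each at an unadjusted p below 0.05 and 0 that passed. Cholesterol genes had medians of 0.25 under 10 µM BPS and 0.36 under DMSO, retinoid genes -0.22 and -0.12, and red cell genes -1.10 and -0.99. Under 50 µM BPS 7283 of 16786 genes were called (43.4%), and 5742 were shared, 80.2% of the 10 µM calls and 78.8% of the 50 µM calls, with 0 in opposite directions.

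The difference of the 2 changes was tested directly. Over 17504 genes 0 passed for 10 µM BPS minus DMSO (smallest adjusted p 0.999), by edgeR, by DESeq2 and by limma-voom, and 430 (2.46%) had an unadjusted p below 0.05. That number was 875 without replicate 3 and 350 without replicate 5 of the 10 µM 3 h group and 775 without replicate 5 of the DMSO 24 h group. A share of 2.46% is less than a threshold of 0.05 gives by chance when no gene differs, so the test may be conservative. The test treated all libraries as independent. Libraries of 10 µM BPS and DMSO with the same number correlated at 0.0905 to 0.242 at 24 h and at -0.0604 to 0.19 at 3 h. What they shared within a time was not modelled. The cause of the low share was not tested. The precision was moderate: the median half-width of the 95% interval of the difference was 0.28 on the log2 scale, and the whole interval lay within 2-fold either way for 13863 genes (79.2%) and within 1.5-fold for 11430 (65.3%). Among the 1025 genes changed at least 2-fold, 608 (59.3%) had an interval within 2-fold, and for the rest a difference of that size lay inside the interval. Against 50 µM BPS 0 of 17597 genes passed (smallest adjusted p 1) and 581 (3.3%) had an unadjusted p below 0.05. Among these were 9 of 18 ATF4 targets, with a median difference of -0.20, 7 of 25 cholesterol genes (-0.19) and 5 of 20 macrophage genes (0.27). Their median changes were -0.72 under 10 µM BPS and -0.64 under 50 µM BPS for ATF4 targets, 0.25 and 0.46 for cholesterol genes, and 1.05 and 0.76 for macrophage genes. In each of the other lists at most 3 genes had such a p. Of 62 panel genes with a difference from DMSO reported here, 61 had an interval that held 0. The exception was Runx2, whose log2 change was 0.89 under 10 µM BPS and 0.65 under DMSO, a difference of 0.24 (0.06 to 0.42, unadjusted p 0.0115, adjusted p 0.999). Osteopontin had the lowest difference, -0.47 (-1.08 to 0.14).

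**Figure D5:**
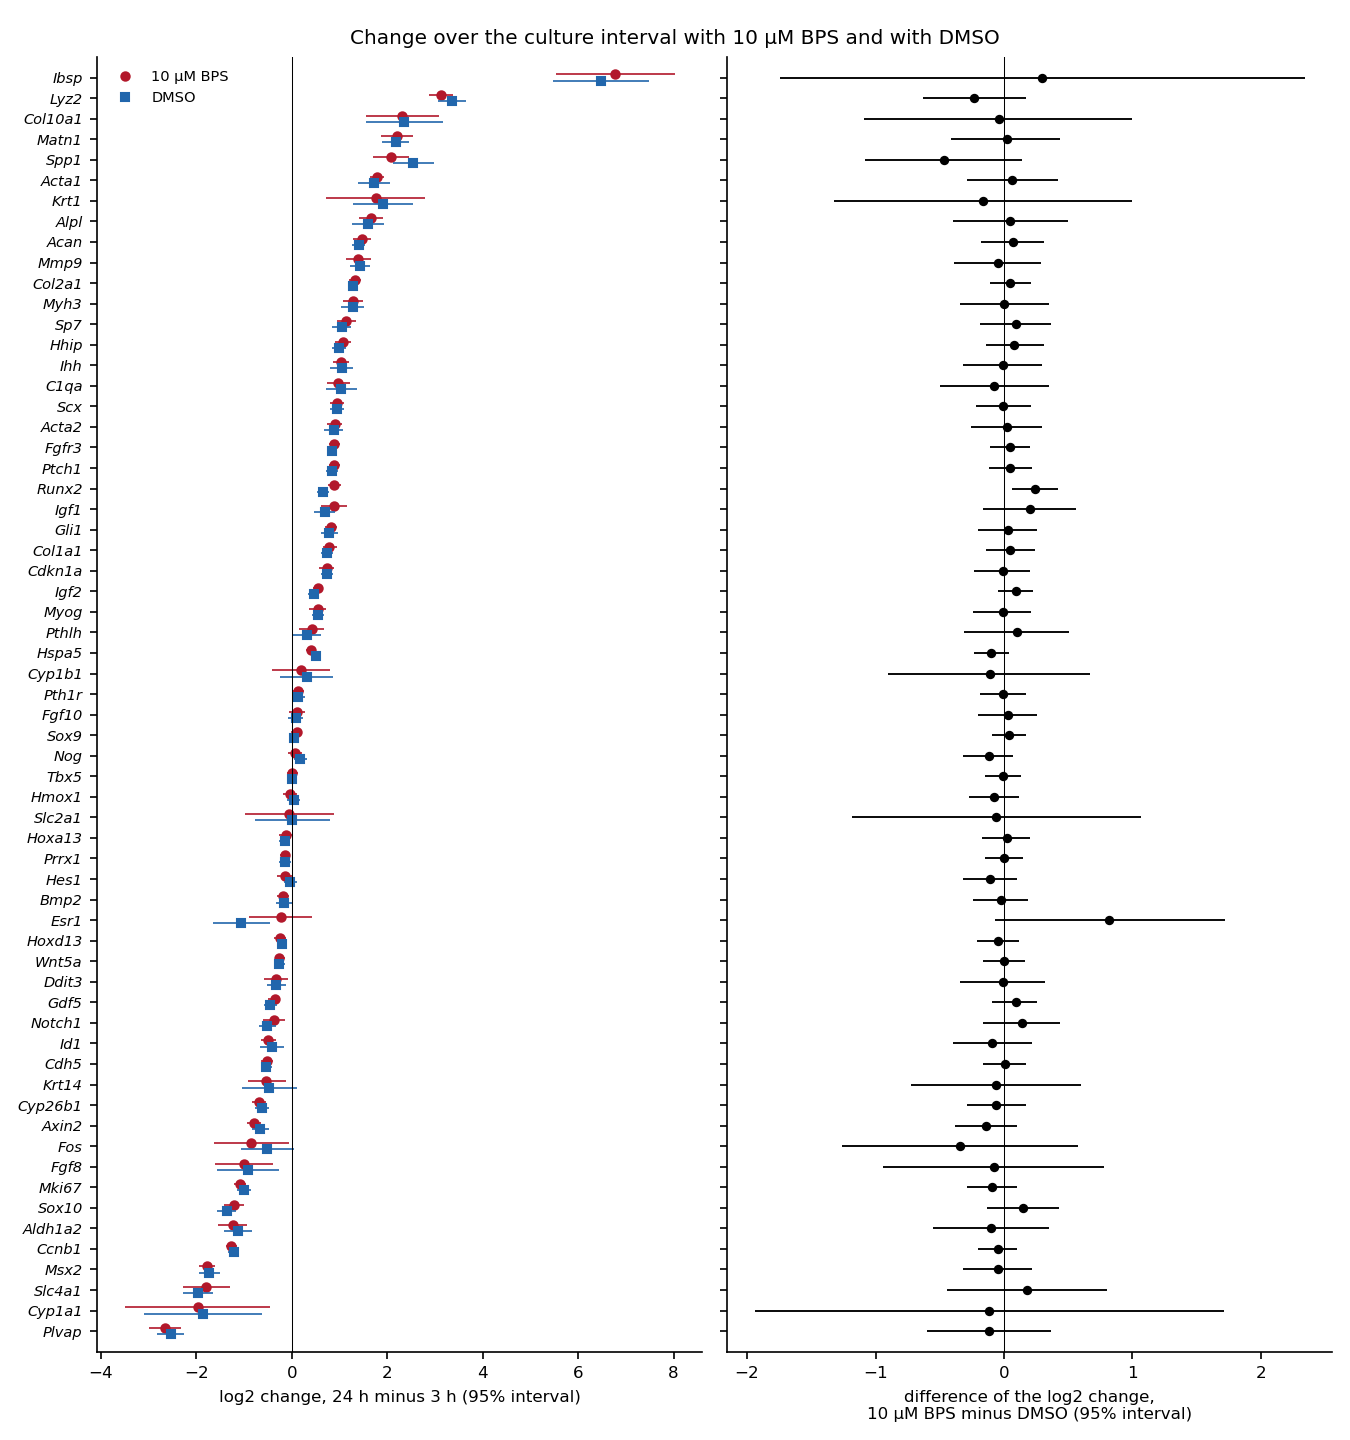
Left, the log2 change at 24 h over 3 h of 62 panel genes with 10 µM BPS (red circles) and with DMSO (blue squares), and right, the difference of these changes, 10 µM BPS minus DMSO (black), all with 95% intervals as lines. Of 62 intervals of the difference 61 hold 0, and the differences run from -0.47 (Spp1) to 0.82 (Esr1, at most 1.88 CPM in any library with 10 µM BPS).

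The genes with the smallest unadjusted p for that difference are given as descriptions, since none passed. Nav3 (chr10:109681259-110456204, minus), a microtubule-associated protein, had 25, 24.6, 29.8, 26.2 and 31 CPM at 24 h and 13, 18, 18.5, 14.7 and 15.4 CPM at 3 h with 10 µM BPS. With DMSO it had 22.6, 21.8, 18.3, 21.7 and 25.4 CPM at 24 h and 20.3, 19.4, 18, 19.2 and 18.5 CPM at 3 h. The log2 change was 0.77 under 10 µM BPS and 0.20 under DMSO, and the difference 0.58 (0.30 to 0.85, p 0.000155, adjusted p 0.999). Slc11a1 (chr1:74375195-74386062, plus), a metal transporter of phagosomes and one of the 8 largest rises (2.95), had 9.28, 10, 9.11, 10.1 and 9.56 CPM at 24 h and 1.6, 1.08, 1.04, 0.933 and 1.52 CPM at 3 h with 10 µM BPS. With DMSO it had 8.01, 7.75, 7.62, 8.61 and 8.26 CPM at 24 h and 1.94, 1.26, 2.35, 1.78 and 2.36 CPM at 3 h, and the difference was 0.91 (0.45 to 1.37, p 0.000366). Both genes were higher on average at 24 h under each treatment, and the 24 h libraries of Slc11a1 with 10 µM BPS all lay above those with DMSO. Its 3 h libraries overlapped, at 0.933 to 1.6 CPM with 10 µM BPS and 1.26 to 2.36 CPM with DMSO. The gene was picked by this difference in these same libraries, so their separation is no further evidence. Opcml (0.72), Plcl1 (0.66) and the gene model Gm45441 (-2.32) had the other smallest p-values, of 0.000774 to 0.00107. Against 50 µM BPS the smallest p-values were those of C1ra (difference 2.00), Csf1r (0.53), Mthfd2 (-0.38), Aldh1l2 (-0.50) and Plin2 (0.30), all with an adjusted p of 1.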

How the data were processed

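The values are read counts per gene that the authors deposited. Per the submitters' processing notes, CASAVA 1.8, STAR 2.5, HTSeq 0.6.1, DESeq2 (version 2) and mm10 were used; the annotation release is not given in the sources used here, and no source states that strand was kept, so overlapping and antisense genes cannot be told apart. Poly-A RNA was sequenced, per the labels' protocols. The authors' own comparison of these groups was not used here.

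Raw counts of 5 tables were joined by gene (33821 genes). The 2 tables with the 10 µM libraries, which also hold DMSO libraries, listed 32495 genes, and 31399 had a read in the 10 µM libraries. A gene missing from a table was set to 0, where the other tables show at most 1 read. The 30 libraries used hold 15.2 to 23.1 M reads, and the floor of 3 reads covers counting error only. Libraries of a group differed by more than sampling noise (smallest chi-square per degree of freedom 4.42). Genes were tested with edgeR 4.0.16 in R 4.3.3 (TMM, filterByExpr, robust quasi-likelihood test, two-sided, Benjamini-Hochberg over all genes tested, adjusted p below 0.05), on the 10 libraries of each treatment alone, and for differences between treatments as an interaction contrast over 20 libraries. SE is the log2 change over the square root of F. RPKM was computed from the counts and the deposited gene lengths. Alternatives were a replicate block, DESeq2's size factors, no filter, DESeq2 1.42.0, limma-voom (limma 3.58.1), genes in every table alone, each library left out, and a promoter window of 150 bases. The scripts were tested on simulated data.

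The members and the 35 gene lists were chosen with earlier results of these data known. The genes named are a panel, the 8 largest rises and 8 largest falls with a mean of at least 1 CPM, 2 genes per list with the smallest adjusted p and 1 that passed against the list's median, and the 5 genes with the smallest p in each difference test; a subset is printed, with other list members as examples, and some named genes are not reported here.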

Additional observations from a re-analysis of the deposited data

Results flagged for a closer look

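In 63 genes with values printed by library, the highest or lowest of the 5 values of a group was set against the others, in 126 groups. Chance alone sets apart about 1 in 20 groups by this measure, and 7 groups were set apart. Gdf5 was at 68.5 CPM in replicate 5 of the 10 µM 24 h group, against 80.2 to 84.7 CPM in the others. Ptch1 was at 155 CPM in replicate 3 of the 10 µM 3 h group, against 130.4 to 134 CPM. Mki67 was at 298 CPM in replicate 2 of the 3 h group, against 353 to 365 CPM. Aplnr was at 12.9 CPM in replicate 1 of the 24 h group, against 7.64 to 8.81 CPM, and at 58.2 CPM in replicate 1 of the 3 h group, against 60.5 to 61.4 CPM. Cyp1a1 was at 30.6 CPM in replicate 5 of the 3 h group, against 2.64 to 10.1 CPM. Bnip3, a hypoxia target, was at 20.2 CPM in replicate 3 of the 3 h group, against 24.9 to 25.6 CPM. The calls for Gdf5, Ptch1, Mki67 and Aplnr were kept under every alternative tried.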

How the results depend on the processing

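The 7159 genes called between 24 and 3 h with 10 µM BPS were 7164 with the replicate number as a block, 7158 with DESeq2's size factors, 7282 by DESeq2, 7152 by limma-voom and 7368 with no filter. With 1 library left out they were 6500 to 7284, the rises 3237 to 3665 and the falls 3225 to 3619. With 10 µM BPS, correlations of deviations between 24 h and 3 h libraries were -0.0713 to 0.0843 for the same replicate number. For different numbers they were -0.141 to 0.147. Low correlations cannot tell whether libraries of one number had a litter or day in common, and this was not tested. The block gave 2 Hox genes and 1 endothelial gene that rose. With the block Krt14 did not pass (-0.51, adjusted p 0.12), while Pth1r (0.14, 0.0356) passed. Between 10 µM BPS and DMSO, libraries with the same number correlated at 0.0905 to 0.242 at 24 h and at -0.0604 to 0.19 at 3 h. With the block over both treatments 0 genes passed the difference from DMSO and 479 had an unadjusted p below 0.05. That block gave each number the same effect at both times, so what libraries shared within a time alone was not modelled. No gene passed the difference from DMSO or from 50 µM BPS in any alternative; unadjusted p-values below 0.05 numbered 1310 and 1607 with no filter, and 350 to 875 and 518 to 799 with a library left out. With no filter the genes that fell were 1 for insulin-like growth factors, 2 for macrophages, 1 for hypoxia, 2 for NRF2, 3 for the aryl hydrocarbon receptor and estrogen list and 0 for interferon, and 1 mitochondrial gene rose. DESeq2 gave 1 hypoxia gene that rose and 3 receptor genes that fell, and limma-voom 2 hypoxia and 2 NRF2 genes that rose and 10 immediate early genes that fell. With a library left out the genes that fell were 3 to 7 for Notch, 2 to 5 for the receptor list, 2 to 4 for proteases, 1 to 4 for hypoxia, 1 to 3 for tendon and joint, 1 to 2 for NRF2, macrophages and osteoclasts and 0 to 1 for interferon, and those that rose 2 to 5 for NRF2, 1 to 2 for Hox and endothelium and 0 to 1 for ATF4, hypoxia and mitochondria. In the window of 150 bases the CHR core stood in 4.33% of all promoters and 50% of cell cycle ones, the CCAAT box in 25.7%, the TATA box in 3.38% and the MEF2 site in 1.31% of all and 4.76% of muscle ones (2.99% and 14.3% in 300 bases). Of 155 named genes 134 kept their direction and side of the threshold throughout. Changes near 0 that never passed turned sign with a library left out: Hmox1 (-0.07 to 0.02), Nog (-0.00 to 0.10), Slc2a1 (-0.46 to 0.12) and Tbx5 (-0.02 to 0.03). Where a call was lost the cause was not tested. Depth limits genes under about 1 CPM, where 3 reads equal up to 0.197 CPM.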

Other observations

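Some of the largest changes were in genes of no list. Fsd2, a sarcoplasmic reticulum protein of muscle, rose by 2.64 on the log2 scale, and Gpr17, a receptor known from oligodendrocyte precursors, fell by 3.35. Gabrp, a GABA receptor subunit of epithelia, fell by 3.49 and Ovol1, an epidermal transcription factor, fell by 3.17. Of the immediate early list, the matricellular gene Cyr61 rose by 1.35. Of the cytosolic heat shock list, crystallin alpha B (Cryab), a small heat shock protein of muscle, rose by 1.47, and the paralogs Hspa1a (-1.12) and Hspa1b (-1.11), which share near-identical sequence, fell.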
